A study of Mus musculus with 2 samples.

Results

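Among the non-mitotic cells of a B16 melanoma, 116 of 774 carried the highest share of hypoxia and metallothionein transcripts and are described here as the hypoxia-high cells. They came from 3715 cell barcodes in the whole series, of which 1489 were in the tumour library and 2226 in the lymph node library. Eligible tumour cells held at least 3834 unique molecular identifiers (UMIs, each standing for 1 captured transcript), 200 genes or more, and no more than 10% of their UMIs from mitochondrial genes. They also held fewer than 20 UMIs of the melanoma genes Pmel, Dct and Mlana, fewer than 3 of the macrophage genes C1qa, C1qb and Lyz2, and fewer than 2 of the mitosis genes Mki67, Top2a, Ube2c, Cdk1 and Birc5. The score was the UMIs of 8 genes (Hilpda, Bnip3, Slc16a3, Egln3, Ddit4, P4ha1, Mt1 and Mt2) divided by all UMIs of the cell. Members were the highest 15% of the score and were compared with the 387 cells of the lowest 50%, with 271 cells between them.

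The mice were Foxp3Cre-YFP animals on C57BL/6, aged 5 to 8 weeks, in which the locus of Foxp3, the lineage factor of regulatory T (Treg) cells, also drives Cre recombinase and a fluorescent protein; the labels name no other allele. B16 is a mouse melanoma line, and the tumour was taken at day 14; the other library came from lymph node of unchallenged animals. Cells were sorted, but the labels name no gate, and the sources used here give no number of mice. Transcripts were counted from their 3' ends in droplets (10x Chromium), with 1 library per tissue.

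With 1 library there was no replicate check, so nothing was tested and p-values are left out. Differences are given as ratios of CPM, the summed UMIs of a gene per 1000000 UMIs of the same cells, with exact 95% intervals that cover counting error only; PCR and sampling of mice are outside them. Since the 8 genes chose the cells, their own values are a description. Every other gene was measured in the same cells and UMIs, so a ratio describes this tumour library and tests nothing.

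When oxygen falls, the prolyl hydroxylases (Egln proteins) no longer mark HIF-1 alpha for destruction, and HIF raises genes of glycolysis, lactate export and mitophagy by binding hypoxia response elements. Metallothioneins are small cysteine-rich proteins that bind zinc and copper, and their genes are switched on by the metal-sensing factor Mtf1 through metal response elements. Tumours are often poorly oxygenated, and Treg cells there usually carry effector genes such as Ctla4 and Gzmb.

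The sequences before the transcription starts of 4 of the 8 genes are shown because the rule joins 2 kinds of gene, known for hypoxia and for metal response elements. Each is the 250 bases upstream of a RefSeq start (GRCm38.p6), 5' to 3' on the strand of the gene. Bnip3 lies at chr7:138909507-138909756 on the minus strand, P4ha1 at chr10:59323046-59323295, Mt2 at chr8:94172368-94172617 and Mt1 at chr8:94178839-94179088, these 3 on the plus strand. Capitals mark the hypoxia response core (ACGTG or GCGTG) in Bnip3 and P4ha1, and the metal response core (TGCACNC or TGCGCNC) in Mt2 and Mt1, searched on both strands.
Bnip3: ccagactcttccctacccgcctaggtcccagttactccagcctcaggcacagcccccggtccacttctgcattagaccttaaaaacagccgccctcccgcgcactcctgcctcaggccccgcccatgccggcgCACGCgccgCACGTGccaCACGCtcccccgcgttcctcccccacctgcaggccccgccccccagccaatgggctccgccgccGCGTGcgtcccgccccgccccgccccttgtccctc
P4ha1: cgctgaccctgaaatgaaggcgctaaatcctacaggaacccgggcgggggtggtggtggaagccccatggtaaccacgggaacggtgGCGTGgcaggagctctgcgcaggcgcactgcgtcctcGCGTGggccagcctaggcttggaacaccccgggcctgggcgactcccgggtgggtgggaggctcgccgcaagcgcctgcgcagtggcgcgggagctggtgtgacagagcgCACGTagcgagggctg
Mt2: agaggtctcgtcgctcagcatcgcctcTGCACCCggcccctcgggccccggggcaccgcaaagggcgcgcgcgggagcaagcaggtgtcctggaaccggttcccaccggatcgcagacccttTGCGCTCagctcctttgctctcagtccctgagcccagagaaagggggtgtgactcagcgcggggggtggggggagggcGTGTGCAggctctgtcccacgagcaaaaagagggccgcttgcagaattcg
Mt1: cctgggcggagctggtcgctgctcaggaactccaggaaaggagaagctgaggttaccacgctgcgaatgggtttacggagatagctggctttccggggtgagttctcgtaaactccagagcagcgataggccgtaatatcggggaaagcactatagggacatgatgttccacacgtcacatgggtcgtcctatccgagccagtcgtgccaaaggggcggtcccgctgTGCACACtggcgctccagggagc
Bnip3 held 5 matches of the hypoxia core and P4ha1 held 3; ACGTG inside CACGTG matches on both strands and counts for each. The same core was in the window of all 6 hypoxia genes of the rule (Ddit4 and Slc16a3 with 2, Egln3 with 1, Hilpda with 3 before 1 of its RefSeq starts and none before the other). It is a common sequence, found in 38.6% of 32851 RefSeq promoter windows of this length, and 3 or more matches in 6.58%. Mt2 held 3 metal cores and Mt1 held 1, against 21.4% of all windows with any and 1.26% with 3 or more. Each kind of core also occurred in windows of the other kind, where it is not in capitals: Mt1 held 2 hypoxia cores, Mt2 held 1, and P4ha1 and Ddit4 held 1 metal core each. A match describes letters in the window and does not show binding.

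The score had no gap at either boundary. The member with the lowest score had a score of 2495 CPM (23 of 9220 UMIs), and the next cell outside had 2492 (19 of 7624). The boundary of the lowest 50% lay between 870 and 869 CPM. Medians were 423 CPM in the lowest 50%, 1384 between and 3568 in members, with a maximum of 22310 (135 of 6051 UMIs). Members were the upper end of a continuous range.

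**Figure D1:**
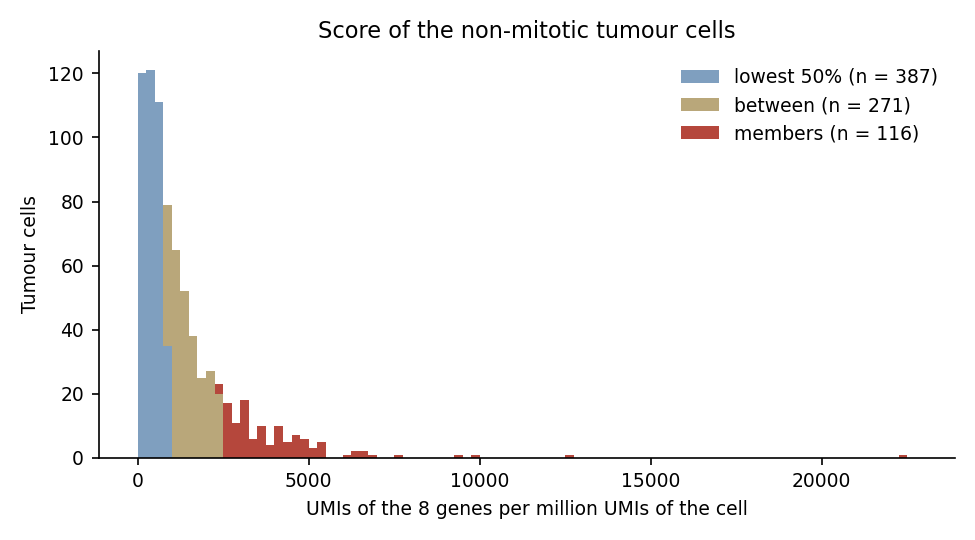
Histogram of the score of the 774 non-mitotic tumour cells: the horizontal axis is UMIs of the 8 genes in CPM of the cell's UMIs, the vertical axis is the number of cells, and stacked colours are the lowest 50%, the cells between and the members. The members, from 2495 CPM upwards, form the tail of 1 continuous distribution.

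Depth differed little between the tiers. Median UMIs per cell were 6067 in the lowest 50%, 6727 between and 6633.5 in members, and median genes were 1964, 2136 and 2104. Mitochondrial UMIs took 1.5%, 1.28% and 1.07% of the total, and ribosomal protein UMIs 25.6%, 23.9% and 22.1%. The tumour matrix held 23618037 UMIs, of which 5552301 were in the 774 cells. Of the barcodes used, 1 occurred in both libraries.

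The members were T cells by their markers, and mostly carried Treg transcripts. Cd3e, a chain of the T cell receptor complex, had a UMI in 98.3% of members and Cd4 in 82.8%. The 6 T cell markers summed to 6503 CPM in members and 6468 CPM in the lowest 50%, and the 5 markers of conventional CD4 T cells (Cd40lg, Tnfsf8, Il7r, Il2 and Ifng) to 100 and 120 CPM. Ikzf2 (Helios), a Treg transcription factor, had one in 92.2% of members and 96.9% of the lowest 50%. Foxp3 itself was sparsely captured, at 20.7 CPM in members, 23.0 CPM in the lowest 50% and 22.6 CPM in lymph node cells, with a UMI in 13.8% of members. The ratio of members to the lowest 50% was 0.90 (0.50 to 1.54) for Foxp3. The 6 Treg markers (Foxp3, Il2ra, Ikzf2, Ctla4, Tnfrsf18 and Tnfrsf4) summed to 7398 CPM in members and 5015 CPM in the lowest 50%, nearly all of it from genes other than Foxp3.

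Markers of other cells were scarce in members. The 9 macrophage markers summed to 25.3 CPM against 13.2 in the lowest 50%, with Lyz2, C1qb, C1qc, Adgre1, Csf1r and Ms4a7 at 0; Lyz2 and C1qb were limited by the rule. The 7 dendritic cell markers summed to 70.1 against 35.4 CPM, most of it H2-Ab1, with Xcr1, Clec9a, Flt3, Siglech and Cd209a at 0. The 8 B16 markers summed to 47.1 against 48.2 CPM, with Tyr and Mitf at 0 and Pmel, Dct and Mlana limited by the rule. Sums for NK cells (2.30 against 1.13 CPM), B cells (13.8 against 14.3), CD8 T cells (16.1 against 21.9), fibroblasts (3.45 against 3.77), endothelium (14.9 against 30.1), erythroid cells (1.15 against 1.51) and neutrophils and mast cells (1.15 against 0) were low in both tiers. Any part of these traces in the differences described here was not tested.

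Several hypoxia genes of the rule had a UMI in most members, as a score summed over them favours. Hilpda, a lipid droplet protein that inhibits triglyceride breakdown, was at 90.4 CPM in the lowest 50%, 390 CPM between and 1449 CPM in members, with a UMI in 93.1% of members. Ddit4, an inhibitor of mTORC1 signalling, was at 163, 545 and 1234 CPM and had a UMI in 98.3% of members. Hilpda gave 35.5% and Ddit4 30.2% of the members' score UMIs. These genes led the score in 52 and 48 members, Mt1 in 13 and Slc16a3 in 3.

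Bnip3, a mitophagy receptor, was at 23.4, 129 and 245 CPM. Slc16a3, the lactate exporter MCT4, was at 59.2, 199 and 322 CPM. Egln3, an oxygen-sensing prolyl hydroxylase, was at 3.39, 26.1 and 52.9 CPM, from only 9 UMIs in the lowest 50%. P4ha1, a subunit of collagen prolyl hydroxylase, was the flattest of the 6, at 34.7, 60.2 and 82.7 CPM. At least 4 of the 6 genes had a UMI in 84 of 116 members (72.4%), against 15 of 387 cells of the lowest 50% (3.88%), and 8 members had all 6. The same genes chose these cells, so the rule set much of this contrast. Over all 774 eligible cells at 3834 UMIs per cell, pairs of the 6 genes were weakly related. Their rank correlations (Spearman) ran from -0.006 for Ddit4 with P4ha1 to 0.27 for Bnip3 with Slc16a3.

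**Figure D2:**
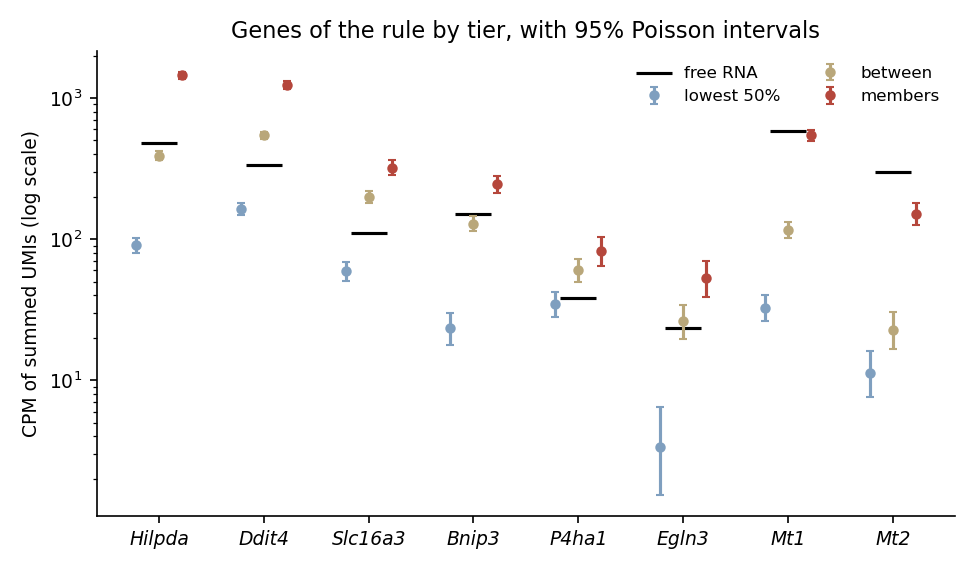
CPM of summed UMIs on a log scale for each of the 8 genes of the rule, in the lowest 50%, the cells between and the members, with 95% Poisson intervals, and the level in free RNA as a black line. Levels increase from the lowest 50% to the members for each gene, as the rule requires, and members lie below free RNA for Mt1 and Mt2 only.

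Part of each gene's ratio was set by choosing cells on that gene. When cells were chosen on the other 7 genes, the ratio of the highest 15% to the lowest 50% was 5.54 (4.93 to 6.22) for Hilpda, 5.30 (4.18 to 6.74) for Bnip3 and 8.59 (4.76 to 16.3) for Egln3. It was 2.90 for Slc16a3, 2.86 for Ddit4 and 1.66 (1.19 to 2.31) for P4ha1. The ratio was still 8.71 (7.15 to 10.6) for Mt1 and 10.7 (7.29 to 16.2) for Mt2, each of which was chosen with the other among the 7. When cells were chosen on a random 50% of their UMIs and measured on the rest, ratios ran from 1.61 (0.993 to 2.58) for P4ha1 to 17.3 for Mt1. Of 116 cells chosen by 50% of the UMIs, 83 were also chosen by the rest.

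Metallothionein transcripts were detected in part of the members. Mt1 was at 32.8 CPM in the lowest 50%, 116 between and 545 CPM in members, and Mt2 at 11.3, 22.7 and 152 CPM. Neither had a UMI in 53 of the 116 members (45.7%, interval 36.4 to 55.2%). At least 5 metallothionein UMIs were found in 29 members, at least 20 in 9, and 10 members had more metallothionein than hypoxia UMIs. The label metallothionein-high thus covers only some of the members.

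A few cells held most of the metallothionein UMIs. The 10 members with most held 63.0% of the 606 Mt1 and Mt2 UMIs, whereas the 10 members with most hypoxia UMIs held 19.2% of 2946. For Mt2, 3 members held 50.8% of the UMIs, and without the 3 highest cells of each tier its ratio to the lowest 50% was 8.16 in place of 13.4. The 3 metallothionein genes measured here lie side by side on the plus strand of chromosome 8 (GENCODE M21, GRCm38), Mt3 at chr8:94152607-94154146, Mt2 at chr8:94172664-94173568 and Mt1 at chr8:94179082-94180327. Mt1 UMIs were spread more widely, with a ratio of 16.6 with and 14.5 without the same kind of cells. Mt3 was at 14.9 CPM in members and 7.91 CPM in the lowest 50%, a ratio of 1.89 (0.87 to 3.95) that its interval does not separate from 1.

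**Figure D3:**
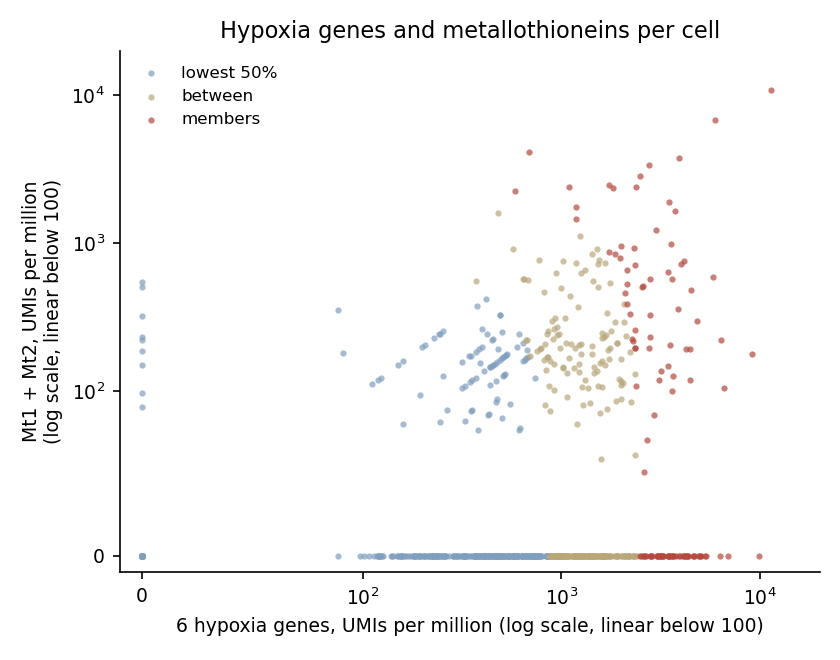
Each point is 1 of the 774 tumour cells; the horizontal axis is the summed level of the 6 hypoxia genes in the cell and the vertical axis that of Mt1 and Mt2, in CPM, each on a log scale that is linear below 100. The 53 members with no metallothionein UMI lie on the horizontal axis at high hypoxia values, and the few cells highest on the vertical axis span a wide range of hypoxia values.

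Cells chosen by each kind of gene overlapped in part. Of the members, 101 were also chosen by the 6 hypoxia genes alone and 45 by Mt1 and Mt2 alone, and 30 of 116 cells were chosen by each. Metallothionein UMIs were 4.31-fold higher (3.68 to 5.05) in the cells chosen by hypoxia genes than in their lowest 50%. Among cells with no melanoma or macrophage UMI that ratio was 6.15. The 6 hypoxia genes were 1.65-fold higher (1.54 to 1.76) in cells chosen by metallothioneins. In this last choice all 387 comparison cells had no metallothionein UMI, ties went to the shallower cells, and median depth was 7575.5 against 5285 UMIs.

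Free RNA from the tumour carried metallothionein transcripts as well. On 188818 barcodes with 1 to 100 UMIs, which hold mostly RNA from outside intact cells, Mt1 was at 582 CPM, Mt2 at 297 and Hilpda at 483 CPM. Tyrp1, a melanocyte pigment gene that T cells lack, was at 376 CPM there and at 9.19 CPM in members and 14.3 CPM in the lowest 50%. If free RNA entered cells in the proportion that Tyrp1 shows, it would give 14.2 of the 545 CPM of Mt1 in members, and 22.1 of the 32.8 CPM in the lowest 50%. For Mt2 it would give 7.26 of 152 CPM in members and 11.3 of 11.3 CPM in the lowest 50%. This estimate rests on Tyrp1 alone, with 38 UMIs in the lowest 50% and 8 in members, and the part of free RNA in the Mt2 ratio was not tested.

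Outside the rule, 200 of 3792 genes with at least 100 UMIs (5.27%) were at least 1.5-fold higher in members than in the lowest 50%, and 211 (5.56%) were at least 1.5-fold lower. The median log2 ratio of these genes was -0.02. For 80 of the higher and 19 of the lower genes the whole counting interval lay beyond 1.5-fold.

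Further genes of the hypoxia response were higher in members. Of 30 such genes outside the rule, 19 had at least 20 UMIs, and of these 13 were at least 1.5-fold higher and none lower, with a median log2 ratio of 0.87. Among all 7913 genes with at least 20 UMIs, 9.20% were that much higher and 14.1% lower, with a median of -0.04. These shares are the background for each later list count in members. Ndrg1, a stress-response gene of the N-myc downstream family, was at 49.4 against 7.54 CPM, a ratio of 6.56 (3.77 to 11.8). Ankrd37, a HIF-1 target with an ankyrin repeat, was at 98.8 against 21.9 CPM (4.52, 3.20 to 6.42). Ero1l, which drives disulfide formation in the endoplasmic reticulum, was at 196 against 52.8 CPM (3.72, 2.96 to 4.69), and Gbe1, the glycogen branching enzyme, at 39.1 against 8.67 CPM (4.51, 2.58 to 8.02). Hif1a itself was 1.53-fold higher (1.36 to 1.72).

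Each measured gene of glycolysis was higher in members, 16 of 16, with a median log2 ratio of 1.09 and ratios from 1.56 to 4.74. Their summed level was 10451 CPM in the lowest 50%, 14513 between and 19491 in members. Hk2, a hexokinase that starts glycolysis, was at 48.3 against 10.2 CPM (4.74, 2.86 to 8.00). Slc2a1, the glucose transporter GLUT1, was at 168 against 37.3 CPM (4.50, 3.46 to 5.86) and had a UMI in 62.9% of members against 21.2%. Thinned to 3834 UMIs per cell, those shares were 50.9% and 14.5%. For Tpi1 and Pgam1, enzymes of the middle and lower pathway, the ratios were 2.20 (2.03 to 2.38) and 2.21 (1.98 to 2.46).

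The respiratory chain differed by genome. Of 12 measured mitochondrially encoded genes, 7 were at least 1.5-fold lower in members and none higher, with a median log2 ratio of -0.61 and sums of 15007 CPM in the lowest 50% and 10663 CPM in members. The complex I subunits mt-Nd2 and mt-Nd1 were 2.10-fold (1.76 to 2.53) and 1.75-fold (1.59 to 1.94) lower. None of 24 nuclear-encoded subunits passed 1.5-fold in either direction, with a median of -0.08. Ndufa4, a subunit of cytochrome oxidase, was 1.38-fold lower (1.20 to 1.59). AA467197, which encodes its paralogue Nmes1, was at 121 against 26.8 CPM, a ratio of 4.51 (3.31 to 6.18), and of 3.29 without the 3 highest cells of each tier.

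**Figure D4:**
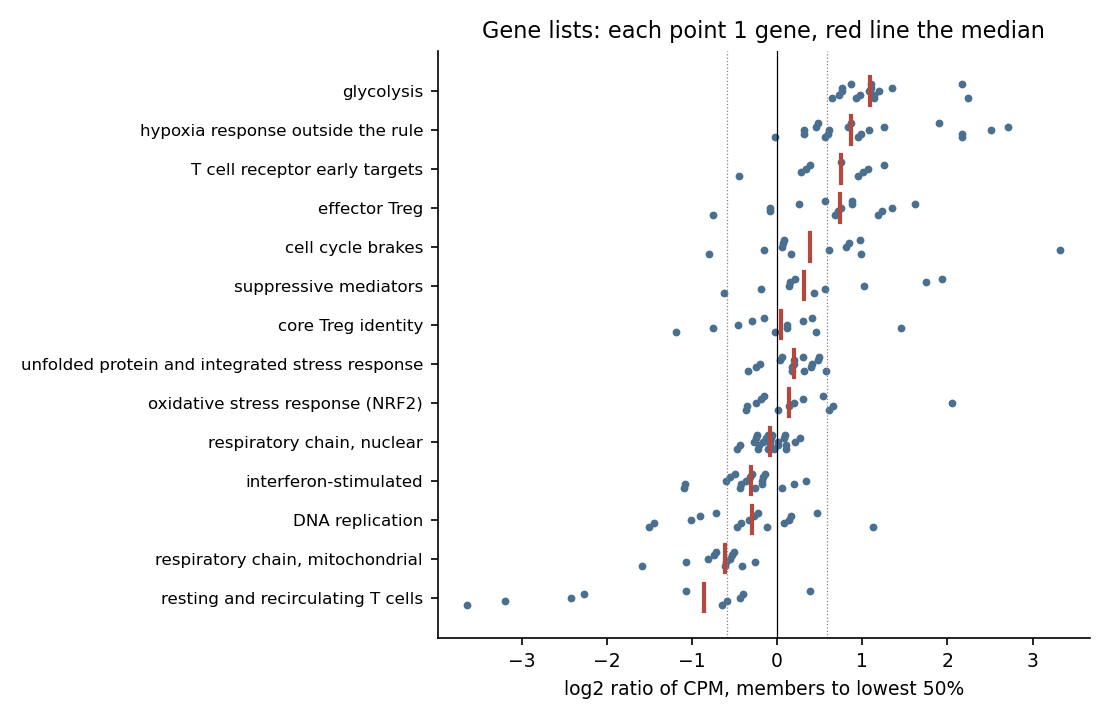
Log2 ratio of CPM in members to the lowest 50% for each measured gene (points) of 14 gene lists, with the list median as a red line and dotted lines at 1.5-fold. Glycolysis and further hypoxia genes lie to the right, resting T cell genes and mitochondrially encoded genes to the left, and nuclear-encoded respiratory genes around 0.

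Stress programmes other than hypoxia differed little as lists. None of 16 genes of the unfolded protein and integrated stress response passed 1.5-fold (median 0.20). Of 13 genes of the NRF2 oxidative stress response, 3 were higher and none lower (median 0.14). Hmox1, which degrades haem, was 4.16-fold higher (1.78 to 10.0) from 15 UMIs, while Txn1 (thioredoxin) was 1.14-fold lower (1.03 to 1.27).

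Zinc genes showed no common direction. Of 11 zinc transporters and Mtf1, 4 were higher and 2 lower, with a median of 0.25, against 9.20% of all genes higher and 14.1% lower. Mtf1 was at 13.8 CPM in members and 18.5 in the lowest 50%, a ratio of 0.75 (0.36 to 1.42). The zinc importer gene Slc39a1 had the ratio farthest from 1 by its interval, 1.86 (1.04 to 3.25). Glucocorticoids are another known inducer of metallothioneins. Of 6 measured genes of the glucocorticoid response, 4 were higher and none lower (median 0.67), against the same shares of all genes. Errfi1 led at 3.39 (1.70 to 6.79), with Sgk1 at 2.83 (1.60 to 5.01). In cells chosen by the 6 hypoxia genes alone 3 of the 6 were higher (median 0.64), against 9.46% of all genes. In cells chosen by Mt1 and Mt2 alone 1 was higher and none lower (median -0.17), against 6.45% of all genes higher. What induced the metallothioneins in these cells was not tested.

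Lipid genes as a list had a median of -0.06, with 1 of 12 higher. That gene was Dgat1, which makes triglyceride, at 523 against 210 CPM (2.49, 2.20 to 2.82). Plin2, a lipid droplet coat protein, had a ratio of 1.40 (0.97 to 2.01). In sterol synthesis 3 of 16 genes were higher and 2 lower (median 0.37). Iron handling had 2 of 7 higher (median 0.02), and autophagy 3 of 12 higher and 2 lower (median 0.09).

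Cdkn1a (chr17:29090976-29100727), the p21 inhibitor of cyclin-dependent kinases, had the largest ratio outside the rule by the lower bound of its interval. It was at 32.0 CPM in the lowest 50%, 105 between and 321 CPM in members, a ratio of 10.0 (7.83 to 12.9). A UMI was present in 59.5% of members and 13.7% of the lowest 50%, or 44.8% and 9.56% when thinned to 3834 UMIs per cell. Without the 3 highest cells of each tier the ratio was 10.3. Of 12 measured cell cycle brakes 6 were higher and 1 lower (median 0.39), against 9.20% and 14.1% of all genes. Among the higher were Gadd45b (1.96, 1.65 to 2.32), Ccng2 (1.98, 1.44 to 2.69) and Cdkn2d (1.75, 1.39 to 2.19).

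Replication genes leaned the other way. Of 16 measured, 5 were lower and 1 higher, with a median of -0.30, against 14.1% of all 7913 genes lower and 9.20% higher. In cells chosen by Mt1 and Mt2 alone the direction was opposite, with 6 of 15 higher and none lower. The helicase subunits Mcm2 and Mcm6 were 2.84-fold (1.42 to 6.45) and 2.02-fold (1.40 to 2.99) lower. Of 13 further mitosis genes 2 had at least 20 UMIs, and 1 of them was lower. These comparisons are among cells that the mitotic limit had already passed.

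**Figure D5:**
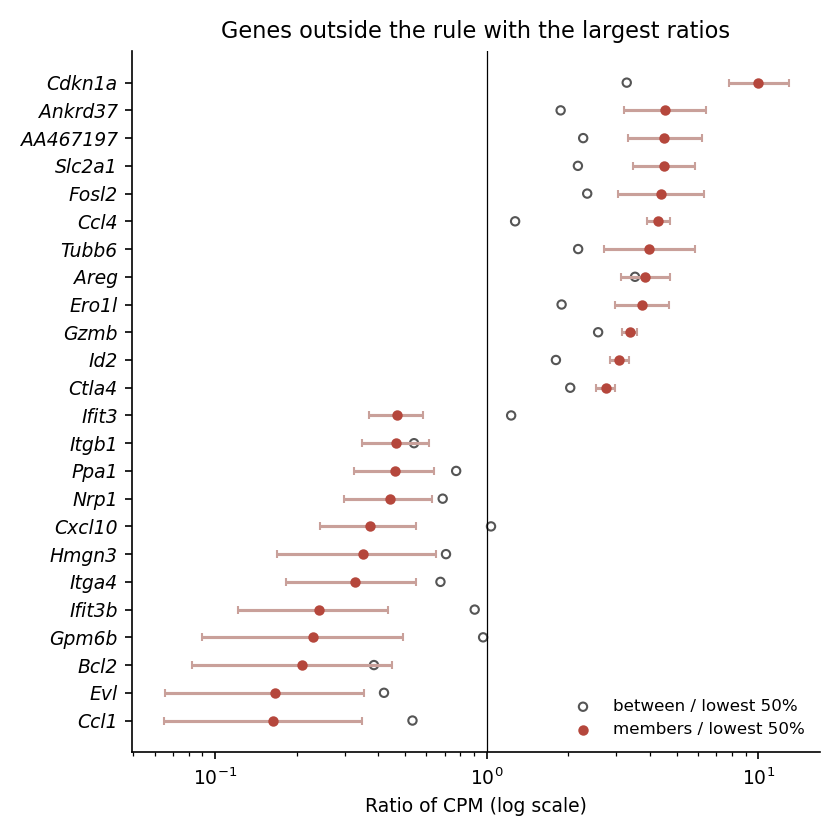
Ratio of CPM to the lowest 50%, on a log scale, for 12 genes each way outside the rule. They were ranked by the end of the interval closer to 1, among genes with at least 100 UMIs. Filled points are members with 95% counting intervals, open points the cells between. Among these genes Cdkn1a lies highest at 10.0 and Ccl1 lowest, and for Ifit3 and Cxcl10 the cells between lie on the other side of 1.

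Effector Treg genes were higher in members, 9 of 14 measured and 1 lower, against 9.20% and 14.1% of all genes, with a median log2 ratio of 0.74. Id2, an inhibitor of E proteins, was at 1457 against 473 CPM (3.08, 2.85 to 3.33). The costimulatory receptor Tnfrsf9 (4-1BB) was at 1871 against 732 CPM (2.56, 2.39 to 2.73). The transcription factors Bhlhe40 and Nfil3 had ratios of 2.34 (2.03 to 2.71) and 2.27 (1.72 to 2.98), and Prdm1 (Blimp-1) of 1.65 (1.10 to 2.44).

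Core Treg genes as a list were near the background: 1 of 12 was higher and 2 lower, against 9.20% and 14.1% of all genes, with a median of 0.05. Ctla4, a receptor that removes costimulatory ligands, was at 1332 against 486 CPM (2.74, 2.53 to 2.97). Ikzf2 was at a ratio of 0.99 (0.92 to 1.06) and Il2ra, the IL-2 receptor alpha chain, at 1.33 (1.11 to 1.58). Nrp1, a semaphorin receptor of thymic Treg cells, was 2.28-fold lower (1.59 to 3.34).

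Among suppressive mediators 3 of 10 were higher and 1 lower (median 0.32), against 9.20% and 14.1% of all genes. Gzmb, a cytotoxic protease, was at 2294 against 681 CPM (3.37, 3.16 to 3.59), with a UMI in 81.9% of members and 49.6% of the lowest 50%. Areg, an EGF receptor ligand with repair functions, was at 246 against 64.1 CPM (3.84, 3.12 to 4.72), and at 225 CPM in the cells between. Il10 was 2.03-fold higher (1.56 to 2.64), with 43.9% of its UMIs in 3 members, and Ebi3, a subunit of IL-35, 1.35-fold higher (1.06 to 1.71). When the score was applied within cells with a Gzmb UMI, 130 genes were higher and 126 lower, against 200 and 211 in all eligible cells. With the list minimum of 20 UMIs, 15 glycolysis genes and 10 further hypoxia genes were at least 1.5-fold higher there, against 16 and 13. Shares over all genes are not given for these cells, so these are counts only.

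Genes of resting and recirculating T cells were lower, 7 of 10 measured and none higher, with a median of -0.86. Tcf7, a factor of resting and stem-like T cells, had 84 UMIs in the lowest 50% and none in members, at least 9.18-fold lower against a floor of 3 UMIs in the members. Id3, an inhibitor of E proteins kept by resting Treg cells, had 49 and none, at least 5.36-fold lower. S1pr1, the receptor for egress from tissue, was 4.81-fold lower (2.12 to 13.5), and Ccr7, the lymph node homing receptor, had 76 UMIs and 2. Genes at 0 entered the median at that floor.

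Adhesion and survival genes stood among the 12 lowest. The integrin chains Itga4 and Itgb1, which pair as VLA-4, were 3.05-fold (1.82 to 5.48) and 2.15-fold (1.63 to 2.88) lower. Bcl2, which blocks apoptosis, was 4.78-fold lower (2.24 to 12.2) and Evl, an actin regulator, 6.00-fold lower (2.83 to 15.2), each from 7 UMIs in members. The BCL2 family as a list had no such direction: of 12 genes, Bcl2 included, 1 was higher and only Bcl2 lower (median 0.13). Gpm6b, Hmgn3 and Ppa1, which have other functions, were also among the 12 lowest, at 4.36, 2.86 and 2.17-fold lower. Among homing receptors Ccr2, which reads inflammatory chemokines, was at 700 against 301 CPM, a ratio of 2.33 (2.09 to 2.59). That list was near the background, with 1 of 12 higher and 2 lower (median 0.17), against 9.20% and 14.1% of all genes.

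Interferon-stimulated genes as a list were near the background in members. Of 18 measured, 3 were at least 1.5-fold lower and none higher (median -0.31), against 14.1% of all genes lower. In cells chosen by the 6 hypoxia genes alone 1 of 18 was lower. In cells chosen by Mt1 and Mt2 alone 5 of 18 were lower and none higher (median -0.49), against 12.7% of all genes lower. The ratio of Ifit3 was 0.71 (0.58 to 0.87) in the choice by hypoxia genes and 0.41 (0.32 to 0.51) in that by metallothioneins. Ifit3 was at 101 against 217 CPM (2.14-fold lower, 1.71 to 2.71), and at 267 CPM in the cells between, so its level did not follow the score across all tiers. Ifit3b, a near-identical copy whose reads may be shared with Ifit3, was 4.15-fold lower (2.31 to 8.22). Cxcl10, an interferon-induced chemokine, was 2.68-fold lower (1.82 to 4.09), with 72.4% of the members' UMIs in 3 cells.

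Of 9 measured early targets of the T cell receptor, 5 were higher and none lower (median 0.76), against 9.20% of all genes higher. Among them were Nr4a1 at 2.10 (1.67 to 2.63) and Tnfaip3 at 2.01 (1.57 to 2.58). Egr2 and Egr3, also in the list, had too few UMIs to be measured and none in members. In cells chosen by Mt1 and Mt2 alone 1 of 9 was higher and 1 lower (median 0.31). Tissue dissociation can also induce immediate-early genes: of 19 genes of dissociation and heat shock, 5 were higher and 4 lower (median 0.27). Ier3 was 8.91-fold higher (4.64 to 18.2), Junb 1.99-fold and Dusp1 2.05-fold. Fosl2, an AP-1 subunit, was 4.37-fold higher (3.04 to 6.33) and Tubb6, a beta-tubulin, 3.96-fold (2.70 to 5.85). The part of dissociation in these values was not tested. Of 7 inhibitory receptors 2 were higher and 3 lower (median 0.34), against 9.20% and 14.1% of all genes.

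Among chemokine genes, Ccl4 and Ccl1 UMIs were held by few cells. Ccl4, an inflammatory chemokine, was at 1200 CPM in members and 280 CPM in the lowest 50%, a ratio of 4.29 (3.90 to 4.71), but 3 members held 72.6% of its UMIs, and without the 3 highest cells of each tier the ratio was 2.17. In cells chosen by the 6 hypoxia genes alone the ratio was 0.91 (0.79 to 1.04), and in cells chosen by Mt1 and Mt2 alone 10.3 (9.10 to 11.7). Ccl3 gave 1.15 (0.93 to 1.42) and 5.84 (4.64 to 7.39) in the same 2 choices. Ccl1 was 6.09-fold lower (2.87 to 15.4) but had a UMI in only 3.45% of members and 3.62% of the lowest 50%. Ccl5, another ligand of inflammatory chemokine receptors, was widely detected, with a UMI in 76.7% of members and 75.5% of the lowest 50%. Its ratio was 1.18 (1.13 to 1.23), and 0.96 without the 3 highest cells of each tier. The list as a whole had 2 of 10 higher and 3 lower (median 0.04).

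Ccl4 levels differed between members with and without a metallothionein UMI, though most members of each group had no Ccl4 UMI. The 63 members with a metallothionein UMI had a median of 8204 UMIs and the 53 without had 5724, so the division follows depth in part. Ccl4 was at 1853 CPM in those with and 125 CPM in those without, a ratio of 14.9 (10.9 to 20.9). It had a UMI in 24 and 11 cells, and 3 cells held 75.6% of its UMIs in those with. Without the 3 highest cells of each group the ratio was 13.6, but those without had only 41 UMIs before that step. Areg was at 164 CPM in those with and 380 CPM in those without, a ratio of 0.43 (0.33 to 0.57) that was 0.77 without the 3 highest cells of each group; it had a UMI in 13 and 14 cells. The 6 hypoxia genes were at 3084 CPM in those with and 3880 CPM in those without. Ddit4 was 1.5-fold lower (1.33 to 1.69) in those with, and Hilpda was at a ratio of 0.86 (0.76 to 0.96). Members with no metallothionein UMI had to reach the members' scores on the 6 hypoxia genes alone. The rule therefore set part of these differences, and they are a description only. Cdkn1a, outside the rule, was at a ratio of 0.89 (0.70 to 1.14). Other genes outside the rule differed in either direction. Ifit3 was at a ratio of 0.35 (0.22 to 0.55), Ifit1 at 0.48 (0.34 to 0.68) and Itgb1 at 0.49 (0.28 to 0.86). Without the 3 highest cells of each group these were 0.40, 0.56 and 0.41. Fdps was at 1.77 (1.17 to 2.73) and Nr4a1 at 1.70 (1.15 to 2.58).

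The programme around each kind of rule gene was therefore set side by side. In cells chosen by the 6 hypoxia genes alone, 16 of 16 glycolysis genes, 10 of 18 further hypoxia genes and 10 of 15 effector Treg genes were at least 1.5-fold higher, with 9.46% of 7940 genes that much higher. In cells chosen by Mt1 and Mt2 alone the counts were 4 of 16, 6 of 18 and 0 of 14, with 6.45% of 7579 genes higher. Mitochondrially encoded genes were lower in 9 of 12 and 1 of 12 cases, against 14.1% and 12.7% of all genes lower. Resting genes were lower in 5 of 10 and 8 of 10, and replication genes had 1 higher and 6 lower of 16 against 6 higher and none lower of 15. Cdkn1a was 10.6-fold higher (8.33 to 13.7) in the first choice and 2.24-fold (1.79 to 2.80) in the second. Of 137 genes named by rule, 31 lay on the other side of 1 in the choice by metallothioneins, among them Hif1a at 0.86 (0.76 to 0.97), Junb, Dusp1, Prdm1, mt-Nd1, Mcm2 and Mcm6. The 2 choices share 30 cells and differ in depth, and the difference between them was not tested.

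Promoters of the higher genes held the hypoxia core somewhat more often than those of the lower genes. It was in the window of at least 1 start for 14 of 16 glycolysis genes (87.5%) and 19 of 24 further hypoxia genes (79.2%). Of genes at least 1.5-fold higher 108 of 152 with a promoter in the table held it (71.1%), of those lower 102 of 171 (59.6%), and of all genes with at least 100 UMIs 1887 of 2939 (64.2%). Shares here are per gene, with every start counted, and so exceed the 38.6% per window. These shares were not tested.

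Scores this high also occurred among mitotic tumour cells. Of 683 tumour cells removed by the mitotic limit, 63 reached the lowest score of the members (9.22%, exact interval 7.16 to 11.6%), at a median of 14387 UMIs per cell. Thinned to 1811 UMIs per cell, where at least 5 UMIs of the 8 genes were needed, 9.81% did (7.68 to 12.3%). This compares with 79.3% of the members themselves and 16.4% (13.9 to 19.2%) of all 774 eligible non-mitotic cells. In lymph node none of 2126 non-mitotic cells reached it, which allows a share of up to 0.141% at the floor of 3 counts, or 0.173% by the exact interval. Lymph node cells had 6 UMIs of Mt1 and 4 of Mt2 among 9458681, and 16.6 CPM of Hilpda. The tissues differ in library as well as in origin and cannot be told apart from it.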

How the data were processed

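The deposited values were raw UMI counts per gene and barcode, with no normalization, as 1 matrix for each library that listed 27998 genes and 737280 barcodes, most of them empty. Gene names, identifiers and barcodes came from the deposited lists, which hold no score and no cell annotation. Per the submitters' processing notes, Cell Ranger and the mm10 build were used; the sources used here give no version, annotation or strand setting. The members and all gene lists were chosen with earlier results of these data known.

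Cells were filtered as the opening states: of 1489 tumour barcodes at or above 3834 UMIs, none had too few genes, 14 exceeded the mitochondrial limit, and the melanoma, macrophage and mitotic limits removed 15, 3 and 683. The lymph node minimum was 1811 UMIs, and 2126 of 2226 cells passed the same limits. Each minimum was 10% of the 99th percentile of UMI totals over the 3000 deepest barcodes. No doublet caller was run and doublets were kept.

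UMIs were summed over each tier and divided by the tier's total (CPM). Ratio intervals are exact conditional-binomial, level intervals Poisson and share intervals Clopper-Pearson, at 95%. A count of 0 was set to a floor of 3 UMIs over the tier. Genes needed 100 UMIs over both tiers, or 20 in the 26 gene lists beside the rule genes and the 14 marker lists; rule and limit genes were left out of the count over all genes. Named were the 8 rule genes, 10 further genes whatever their values (Foxp3, Il2ra, Ikzf2, Ctla4, Il10, Ebi3, Prdm1, Gzmb, Hif1a and Mtf1), the 12 highest and 12 lowest genes by the end of the interval closer to 1, and up to 4 per gene list and 2 per marker list. The 12 each way leave out mitochondrial, ribosomal protein, haemoglobin, antigen receptor and clone-named genes. A few genes were left out of the lists and are not reported here. Cd4 and Mt3 were named after their values were seen.

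Scripts were tested on simulated data. edgeR 4.0.16 gave TMM factors for an alternative scaling only. Other alternatives were a 2-fold limit, no UMI minimum, the highest 10% or 20%, all other cells as comparison, thinning, mean per-cell CPM, leaving out deep cells or cells with melanoma or macrophage UMIs, a 5% mitochondrial limit, and the score from either kind of gene alone. Cells with a Gzmb UMI only, UMIs halved at random, and leaving out the 3 cells of each tier with most UMIs of a gene were added after the data were seen. Python used numpy 2.4.6, scipy 1.17.1 and pandas 2.3.3. Promoters were searched in RefSeq windows on GRCm38.p6, and coordinates of genes are from GENCODE M21.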

Additional observations from a re-analysis of the deposited data

Results flagged for a closer look

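Mitotic tumour cells lie outside the comparisons between tiers, yet 63 of 683 of them (9.22%, exact interval 7.16 to 11.6%) reached the lowest score of the members, while 0 of 387 cells of the lowest 50% did, as the rule fixes, and 0 of 2126 lymph node cells. Their median depth was 14387 UMIs against 6633.5 in members, and at 1811 UMIs per cell the share was 9.81%. The summed level of the 6 hypoxia genes in mitotic cells was 849 CPM and that of Mt1 and Mt2 217 CPM, against 3385 and 696 CPM in members. The difference between mitotic cells and the others was not tested.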

How the results depend on the processing

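Of 137 named genes, 35 had a ratio on the other side of 1 under at least 1 of the 14 settings run for each. With cells chosen by Mt1 and Mt2 alone, 31 did so. Genes below 1 there were Ebi3 0.99, Prdm1 0.997, Hif1a 0.86, Fth1 0.98, Sgk1 0.89, Nr3c1 0.88, Slc3a2 0.98, Ppp1r15a 0.81, Gabarap 0.88, Tnfrsf18 0.90, Pdcd1 0.94, Nfkbia 0.82, Junb 0.91, Dusp1 0.76, Jund 0.99, Gadd45b 0.96, Cdkn2d 0.85, Cd28 0.995, Cd40lg 0.76. Genes above 1 there were Ppa1 1.01, Prdx1 1.01, Txn1 1.37, Atp5g1 1.08, Atp5a1 1.11, mt-Nd1 1.04, mt-Co3 1.01, Btla 1.01, Mcm2 1.25, Mcm6 1.17, Mcm3 2.66, Tnfsf8 1.09. Other reversals were Ccl4 at 0.91 with cells chosen by the 6 hypoxia genes alone, Ccl5 at 0.98 in cells with a Gzmb UMI and 0.96 without its 3 highest cells of each tier, Atp5a1 at 1.01 and Cd68 at 0.95 after thinning, Mcm3 at 1.02 without the 5% deepest cells, and Pecam1 at 1.08 on separate 50% parts of the UMIs. No such reversal occurred with TMM scaling, a 5% mitochondrial limit, the highest 10% or 20%, all other cells as comparison, mean per-cell CPM or cells without melanoma or macrophage UMIs.

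The count of higher genes was 200, and 61 at a 2-fold limit, 3482 with no UMI minimum, 68 by Mt1 and Mt2 alone and 130 in cells with a Gzmb UMI. The count of lower genes was 211, and 35, 1706, 154 and 126 in the same order, with 125 after thinning and 119 on separate parts of the UMIs. These are counts and not shares, since the genes that reach the UMI minimum change with the cells and UMIs used. Further hypoxia genes counted 13, and 7 at 2-fold and 6 by Mt1 and Mt2 alone; glycolysis genes counted 16, and 9 and 4; under the other settings these counts ran from 10 to 19 and from 14 to 17. The metallothionein ratio of 4.31 in cells chosen by hypoxia genes was 3.36 against all other cells, 5.09 on separate parts of the UMIs, 5.69 by mean per-cell CPM, 6.15 without cells holding melanoma or macrophage UMIs, 6.32 without the 5% deepest cells and 7.07 after thinning. The hypoxia ratio of 1.65 in cells chosen by Mt1 and Mt2 was 1.81 at the highest 10%, 1.52 at the highest 20% and 1.48 on separate parts of the UMIs. A stricter limit or fewer UMIs lower a count by construction; otherwise the cause was not tested. No paired analysis was possible because there was 1 library per tissue. Genes with under 20 UMIs, such as Hmox1 in members, have wide intervals, and a share of cells with a UMI is limited by depth.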
